A study of Caenorhabditis elegans with 6 samples.

Results

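The genes described here are 4 pairs of paralogs, related genes within one genome that encode versions of the same protein: asb-1 and asb-2, iff-1 and iff-2, rpl-11.1 and rpl-11.2, and rpl-25.1 and rpl-25.2. They were taken by name from the deposited table, which gives read counts for 22416 genes, and all 8 were found and passed the filter on low counts that left 14677 genes. The pairs were chosen because, in these same libraries, one gene of each was lower and the other higher on nol-56 RNAi. Their levels and fold changes are therefore a description and carry no test. The descriptions in the deposited table give the same product to both genes of each pair.

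RNA was sequenced from 6 pools of whole Caenorhabditis elegans worms of strain CL2006, whose genotype, unc-54p::Abeta, places the amyloid-β peptide under a muscle promoter, in every pool of both groups. All worms were raised at 20 °C on bacteria with the empty RNAi vector (EV) until the L4 larval stage. From then until harvest on day 6 of adulthood, 3 pools stayed on EV bacteria (EV control, named untreated in the labels) and 3 were fed bacteria against nol-56, whose product sits at the centre of the particles that methylate ribosomal RNA (nol-56 RNAi). Worms were moved daily to remove progeny. No label says that pools came from separate cultures, so any spread between libraries may be technical. In pools of whole worms, fewer cells of a type and less RNA per cell cannot be told apart.

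Each pair belongs to a machine that every cell uses. asb-1 and asb-2 encode subunit b of the mitochondrial ATP synthase, part of the peripheral stalk that holds the catalytic head still while the rotor turns, and asb-1 is known in C. elegans as the germline version. iff-1 and iff-2 encode eIF5A, which carries the modified lysine hypusine and helps ribosomes through stretches that are hard to translate; iff-1 is known for its need in germ cell proliferation, and iff-2 for its role in the soma. rpl-11.1 and rpl-11.2 encode the large-subunit ribosomal protein L11, a partner of 5S ribosomal RNA, and rpl-25.1 and rpl-25.2 encode L23a, which lies at the exit of the peptide tunnel. Genes on the X chromosome are largely kept silent in the C. elegans germline.

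Total counts per library ran from 21138955 to 34841215, with Pearson correlations of 0.995 to 0.996 in log2 CPM across genes within a group and 0.939 to 0.944 between groups. CPM is the usual depth-scaled count, here with TMM factors applied to the library totals. The targeted gene followed the labels: in the controls nol-56 stood at 253, 270.2 and 265 CPM, and after RNAi against it at 20.8, 17.97 and 15.7 CPM (libraries 1 to 3). Of the 14677 genes tested with edgeR's quasi-likelihood test, 47.2% were called higher and 40.8% lower (adjusted p under 0.05, RNAi against control), and the median log2 fold change was 0.16. A call in either direction is thus the common state of a gene in this comparison.

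In the ATP synthase pair the shift lay mostly in one gene. asb-1 (WBGene00000206, chromosome III, 4594543 to 4595821, minus strand of WBcel235) had 254, 261 and 257 CPM in the 3 control libraries. The RNAi libraries had 80.1, 80.3 and 72.6 CPM. Every RNAi library was thus far below every control library, and asb-1 was 3.31-fold lower (log2 fold change −1.73, standard error 0.04). asb-2 (WBGene00000207, chromosome X, 4469766 to 4471476, plus strand) stood at 140.3, 149.5 and 153 CPM in EV control and at 187, 184 and 183 CPM in nol-56 RNAi libraries. The groups did not overlap, but asb-2 was only 1.25-fold higher (0.32, standard error 0.04), the smallest shift of the 8 genes. Of all tested genes, 53.6% had a lower log2 fold change than asb-2, and its value ranged from 0.18 with DESeq2 to 0.57 with upper-quartile factors.

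The eIF5A pair was wider apart. iff-1 (WBGene00002064, chromosome III, 9745862 to 9747193, minus strand) stood at 391, 433 and 427 CPM in EV control libraries. In nol-56 RNAi libraries it stood at 137, 135 and 123 CPM, 3.17-fold lower (log2 fold change −1.66, standard error 0.05). iff-2 (WBGene00002065, chromosome II, 8559375 to 8561367, minus strand) stood at 159, 175 and 166 CPM in EV control and at 288, 290.1 and 269.8 CPM in nol-56 RNAi libraries. That is 1.69-fold higher (0.76, standard error 0.04), and neither gene's groups overlapped. iff-2 was the higher gene by CPM in every RNAi library and the lower one in every control library.

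The L11 pair moved farthest apart. rpl-11.1 (WBGene00004422, chromosome V, 3585312 to 3586064, minus strand) stood at 761, 839 and 832 CPM in EV control libraries and at 293, 279.7 and 255 CPM in nol-56 RNAi libraries, 2.94-fold lower (log2 fold change −1.55, standard error 0.05). rpl-11.2 (WBGene00004423, chromosome X, 2241738 to 2242618, minus strand) stood at 205, 229 and 233 CPM in EV control and at 523, 492 and 446 CPM in nol-56 RNAi libraries. It was 2.19-fold higher (1.13, standard error 0.05), the largest shift upward among the 8 genes. Both L11 genes were at their lowest among RNAi libraries in library 3 and at their lowest among controls in library 1, so that their ratio varied less within a group than either level.

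The L23a pair runs the other way by number, with the gene numbered 2 as the lower one on RNAi. rpl-25.2 (WBGene00004439, chromosome I, 8329062 to 8329647, minus strand) stood at 658, 676 and 691 CPM in EV control and at 339, 354 and 333 CPM in nol-56 RNAi libraries, 1.97-fold lower (log2 fold change −0.98, standard error 0.04). rpl-25.1 (WBGene00004438, chromosome X, 4715178 to 4715796, plus strand) stood at 120.0, 125 and 125 CPM in EV control and at 241, 265 and 255 CPM in nol-56 RNAi libraries. It was 2.05-fold higher (1.04, standard error 0.04), and the groups of both genes were again apart. Groups did not overlap for any of the 8 genes, a state they shared with 88.0% of all genes tested. The coefficient of variation within a group ran from 1.03% (asb-2 on RNAi) to 7.97% (rpl-11.2 on RNAi).

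**Figure D1:**
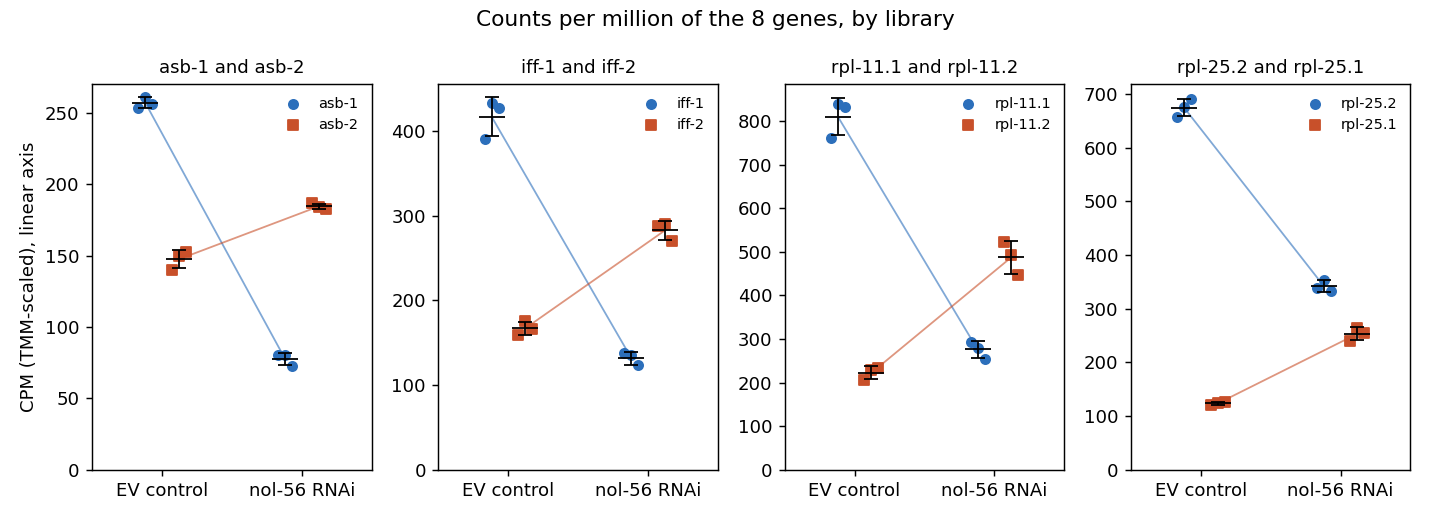
CPM of both genes of each pair in the 3 EV control and 3 nol-56 RNAi libraries, on linear axes that start at 0 and differ between panels; points are libraries, black bars the mean ± SD, and coloured lines join the group means. The lines cross in the first 3 panels, while rpl-25.2 stayed above rpl-25.1 in both groups.

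Levels of different genes were compared per kilobase of annotated exon, that is CPM divided by exon length. In EV control, the gene that was lower on RNAi dominated its pair every time. asb-1 held 66.8 ± 0.820% of the asb pair (mean ± SD, n = 3 libraries), iff-1 79.0 ± 0.451% of the iff pair, rpl-11.1 80.3 ± 0.311% of the rpl-11 pair and rpl-25.2 84.5 ± 0.120% of the rpl-25 pair. On nol-56 RNAi these shares were 32.6 ± 1.11% for asb-1, 41.19 ± 0.549% for iff-1, 38.8 ± 0.231% for rpl-11.1 and 57.4 ± 0.934% for rpl-25.2. The majority gene changed in 3 pairs and stayed the same for L23a. The range between libraries of one group was narrow: rpl-11.1 held 80.6%, 80.4% and 80.0% in the control libraries, against 38.5%, 38.9% and 39.0% in the RNAi libraries.

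The ratio of 2 genes in 1 library does not depend on how libraries are scaled to each other. The log2 ratio of the counts of rpl-11.2 to rpl-11.1 went from −1.87 ± 0.03 in EV control to 0.82 ± 0.01 on RNAi (mean ± SD, n = 3). That of iff-2 to iff-1 went from −1.32 ± 0.04 to 1.10 ± 0.03, that of asb-2 to asb-1 from −0.80 ± 0.05 to 1.25 ± 0.07, and that of rpl-25.1 to rpl-25.2 from −2.45 ± 0.01 to −0.43 ± 0.06. The fold changes of the genes thus differed 6.44-fold within the L11 pair, 5.36-fold within the eIF5A pair, 4.14-fold within the subunit b pair and 4.05-fold within the L23a pair. These distances are many times the spread between libraries, as they had to be for pairs picked on them.

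**Figure D2:**
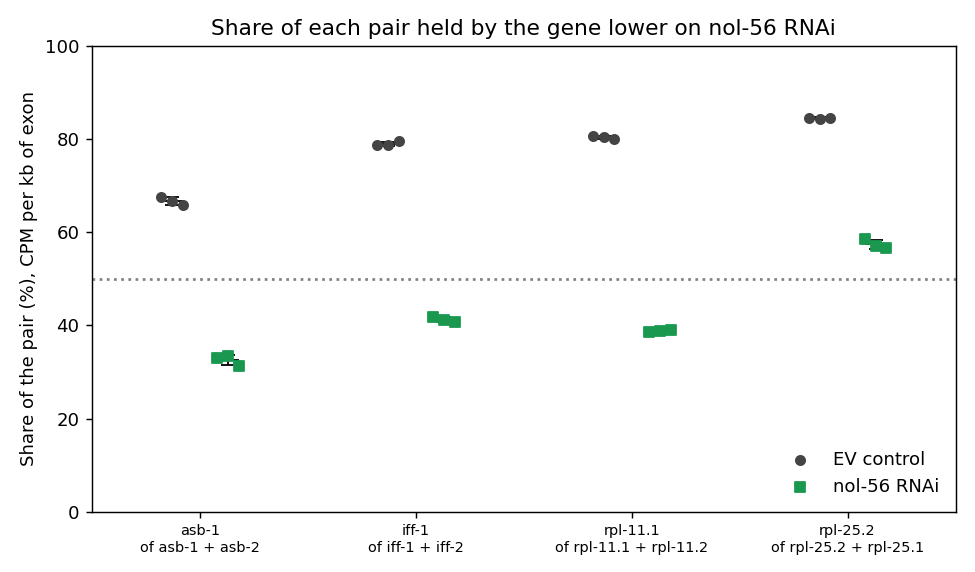
Share of each pair's summed level, in CPM per kilobase of exon, held by the gene that was lower on nol-56 RNAi, as percent on an axis over the whole range of a share; points are libraries, bars the mean ± SD and the dotted line marks equal levels. The EV control libraries lie above the line in all 4 pairs, and the RNAi libraries below it in all but the rpl-25 pair, at 57.4%.

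The gain of one gene did not make up for what the other lost. Per kilobase of exon, asb-2 gained 17.9% of the amount by which asb-1 was lower, iff-2 gained 26.99% of that of iff-1, rpl-25.1 39.1% of that of rpl-25.2 and rpl-11.2 44.4% of that of rpl-11.1. These percentages moved with the scaling of libraries, over 14 alternatives from 9.39% to 37.6% for asb, 20.1% to 43.0% for iff, 35.3% to 65.9% for rpl-11 and 29.4% to 66.0% for rpl-25, with the highest value from upper-quartile factors each time. The summed level of the asb pair went from 376 ± 8.14 to 232 ± 5.50 CPM per kilobase and that of the iff pair from 783 ± 41.3 to 474 ± 21.98. The rpl-11 sum went from 1543 ± 85.9 to 1088 ± 83.0 and the rpl-25 sum from 1613 ± 38.3 to 1204 ± 41.7 CPM per kilobase, with no overlap between groups for any of the 4 sums. On the log2 scale the sums changed by −0.70 (asb), −0.72 (iff), −0.50 (rpl-11) and −0.42 (rpl-25). Summed as CPM without regard to length, the changes were −0.63, −0.49, −0.44 and −0.42, so the value for iff moved most with the annotated exon length (674 bases for iff-1, 1013 for iff-2). With upper-quartile factors the per-kilobase sums changed less, by −0.45 (asb), −0.26 (rpl-11) and −0.18 (rpl-25).

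Set beside the other genes of each machine, the single genes of these pairs lay at the edges and the pair sums near the middle. The places of the single genes follow in part from how they were chosen, and their ranks below are a description. Of 16 other ATP synthase genes, 14 fell and 1 rose (2 with upper-quartile factors, library totals or a filter at CPM above 5). Their median log2 fold change was −0.68, against −0.70 for the summed asb pair (edgeR calls at an adjusted p under 0.05, over all genes tested). asb-1 was lower than all 16 of them, and asb-2 above 15. The catalytic head genes atp-1, from 1832 ± 24.9 to 699 ± 8.74 CPM (log2 fold change −1.39, adjusted p = 8.14e-18), and atp-2 (−1.21, adjusted p = 7.78e-17) fell the most. The exception was mai-1, which is related to the ATPase inhibitor protein and rose from 5.96 ± 0.509 to 12.095 ± 0.471 CPM (1.02, adjusted p = 6.63e-10).

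Of 33 other translation factors, 29 fell and 4 rose (26 to 29 and 2 to 6 over the 14 alternatives, with 2 from RLE factors or DESeq2). The call of ife-2, one of the 4, was lost with the replicate block. Their median log2 fold change was −0.66, against −0.72 for the summed iff pair. iff-1 was lower than all 33, and iff-2 was above 32 of them. eif-3.C, a subunit of the initiation factor eIF3 (−1.43, adjusted p = 3.07e-18), and inf-1, the helicase eIF4A (−1.42, adjusted p = 6.65e-18), fell the most. eef-1A.2, one of 2 genes for elongation factor 1A, rose from 881 ± 32.6 to 1559 ± 33.7 CPM (0.82, adjusted p = 6.82e-14), and pab-2, a poly(A)-binding protein gene, rose from 265 ± 7.46 to 403 ± 11.12 CPM (0.60, adjusted p = 5.15e-12). Both enzymes that make hypusine on eIF5A fell in edgeR's test: dhps-1, deoxyhypusine synthase, from 39.1 ± 2.67 to 20.0 ± 1.25 CPM (−0.96, adjusted p = 2.99e-12), and dohh-1, deoxyhypusine hydroxylase, from 65.1 ± 4.64 to 51.6 ± 3.21 CPM (−0.34, adjusted p = 7.12e-06). With upper-quartile factors dohh-1 stood at −0.09 and was no longer called.

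Of 77 other cytosolic ribosomal protein genes tested, 71 fell and 1 rose (56 and 6 with upper-quartile factors). Their median log2 fold change was −0.45, against −0.50 and −0.42 for the rpl-11 and rpl-25 sums. rpl-11.1 was lower than all 77, rpl-25.2 was lower than 75, and rpl-11.2 and rpl-25.1 were above all 77. The next lowest was rpl-7A (−1.20, adjusted p = 5.58e-17 in edgeR's test), followed by rpl-12 (−1.05, adjusted p = 1.15e-13). The 1 that rose was rla-0, which encodes the stalk protein P0, from 1791 ± 118 to 2412 ± 177 CPM (0.43, adjusted p = 2.43e-07). In level per kilobase, rpl-11.1 was above 27 of the 77 in EV control and above 5 on RNAi, whereas rpl-11.2 was above 3 in EV control and 13 on RNAi. rpl-25.2 was above 35 and then 14 of them, and rpl-25.1 above 3 and then 7.

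**Figure D3:**
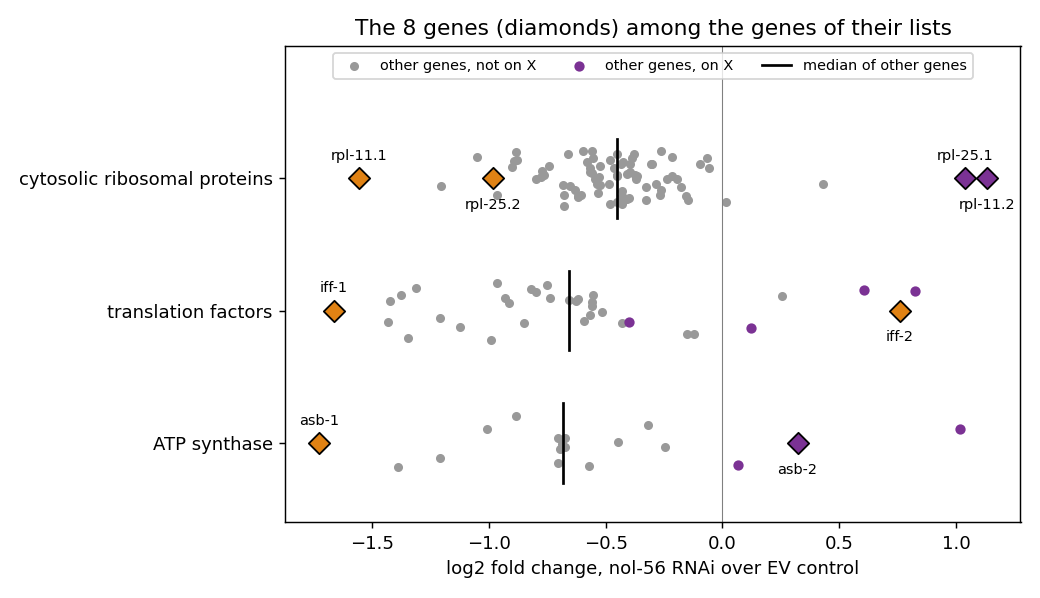
Log2 fold change (nol-56 RNAi over EV control) of the 8 genes, drawn as diamonds, and of the other genes of each list, drawn as points with random vertical spread; purple marks X-linked genes and black lines the medians of the other genes (−0.68, −0.66 and −0.45). The lower gene of each pair sits at or near the left edge, and the higher gene at or near the right edge, which follows in part from how the pairs were chosen.

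The chromosomes of the 8 genes were not themselves used to choose them. Their directions were, and X-linked genes were more often called higher (values below), so chromosome is not independent of the choice. Of the 4 higher genes, 3 lie on the X chromosome (asb-2, rpl-11.2 and rpl-25.1) and iff-2 on chromosome II, whereas 0 of the 4 lower genes are X-linked. Over all genes tested, 66.7% of 2195 X-linked genes were called higher and 19.8% lower, against 43.8% and 44.5% of 12468 autosomal genes, and the median log2 fold change was 0.75 on X and 0.01 on autosomes. None of the other 77 ribosomal protein genes tested is X-linked, so rpl-11.2 and rpl-25.1 are the X-linked ones among the ribosomal protein genes tested. The relation of position to the direction of these pairs was not tested.

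Other pairs inside the same machines are described here as values, and were named after those values were seen. Of 8 such pairs other than the 4, 5 have one X-linked and one autosomal gene, and 4 of these were called in opposite directions with the X-linked gene higher. The opposite calls held under all 14 alternatives for the eef-1A and mai pairs, under 11 for the pab pair and under 7 for the ife pair. For elongation factor 1A, eef-1A.1 fell from 9836 ± 435 to 4515 ± 225 CPM (log2 fold change −1.12, adjusted p = 6.56e-15 in edgeR's test) while eef-1A.2 rose. mai-2 fell (−0.88, adjusted p = 1.14e-13) while mai-1 rose. ife-1, an eIF4E gene, fell (−0.75, adjusted p = 6.71e-13) and ife-2 stood at 0.12 (adjusted p = 0.0397), but ife-2 stood at −0.02 with RLE factors or DESeq2. The ife-2 call was also lost with the replicate block (0.12), without any 1 of the EV control libraries (0.10 to 0.12) and without nol-56 RNAi library 1 (0.07). pab-1 stood at −0.15 (adjusted p = 0.00259) beside the rise of pab-2. It stood at 0.10 with upper-quartile factors, and was not called with library totals (−0.06) or with a filter at CPM above 5 (−0.0052). asg-1, for ATP synthase subunit g, fell (−1.01, adjusted p = 4.86e-13) and X-linked asg-2 stood at 0.07 (adjusted p = 0.323), though it was called higher with upper-quartile factors (0.31), library totals (0.16) and a filter at CPM above 5 (0.21). The 3 pairs with no X-linked gene were called lower in both genes: eef-1B.1 and eef-1B.2 (−0.63 and −0.66), rla-1 and rla-2 (−0.19 and −0.41) and rpl-41.1 and rpl-41.2 (−0.74 and −0.68). The rla-1 call was lost with upper-quartile factors (0.05), library totals (−0.10), a filter at CPM above 5 (−0.05) and without nol-56 RNAi library 3 (−0.11). Reads of eef-1A.1 and eef-1A.2, which encode near-identical proteins, may be shared between them.

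A wider set was drawn from all genes whose symbols differ only in a last number, 1 against 2, and whose deposited descriptions are the same without numbers. Of 384 such pairs other than the 4, 19.5% (75) were called in opposite directions, 138 were lower in both genes and 109 higher in both. Protein identity was not checked, so some of the 384 may not be paralogs. Shares and ranks in this set are therefore not those of paralogs alone. With a fold of at least 1.5 required of both genes as well, 26 were called in opposite directions, and asb-2, at 1.25-fold, would not meet that rule either. Among 94 of them with one X-linked and one autosomal gene, the X-linked gene had the higher log2 fold change in 74 (78.7%). Over all 94, the median difference, X-linked minus autosomal, was 0.61. Of the 35 in that group called in opposite directions, 29 had the X-linked gene higher. Among 275 pairs with neither gene on X (autosomal, as for iff, or mitochondrial), 37 were called in opposite directions. The distance between the 2 log2 fold changes had a median of 0.53 in the 384 pairs. It was larger than that of the L11 pair (2.69) in 6 of them, than that of the eIF5A pair (2.42) in 12, than that of the subunit b pair (2.05) in 18 and than that of the L23a pair (2.02) in 18. The 4 pairs are thus among the widest, which follows from how they were chosen.

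**Figure D4:**
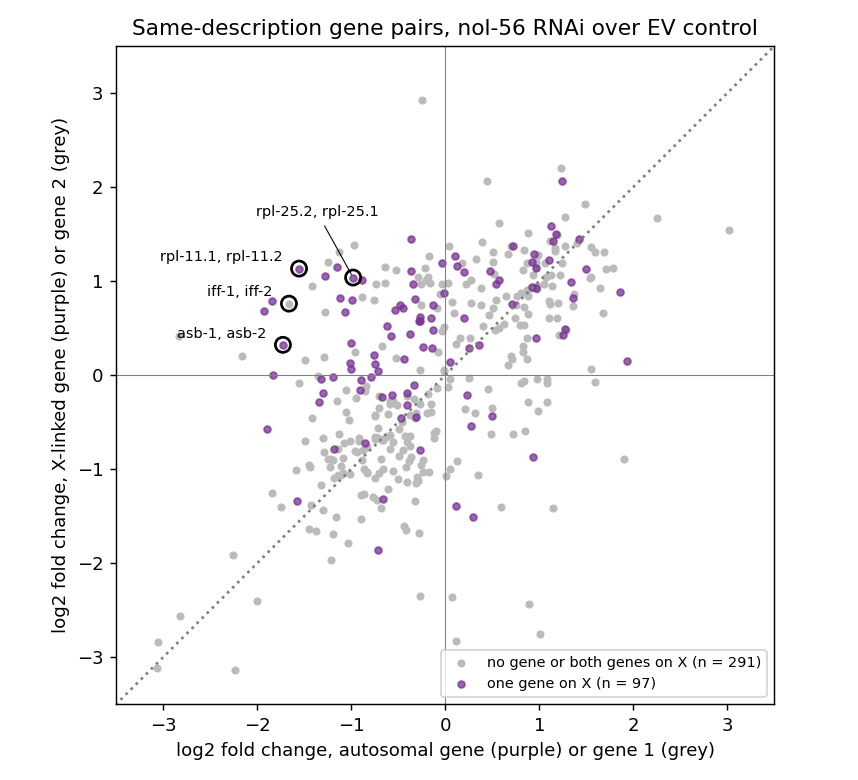
Log2 fold change of one gene against the other in 388 pairs with the same deposited description, the 4 pairs circled; in pairs with one X-linked gene (purple) the autosomal gene is on the x axis and the X-linked gene on the y axis, in others (grey) the genes numbered 1 and 2. The 4 pairs lie in the upper left, where the first gene is lower and the second higher on nol-56 RNAi, and most purple points lie above the dotted line of equal change.

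Cell type markers moved in the same libraries. All 30 germline markers fell (median log2 fold change −1.16), and their summed level was 16343 to 18114 CPM in EV control and 8287 to 8588 CPM in RNAi libraries. In contrast, 14 of 15 neuron markers rose (629 to 657 and then 1265 to 1300.4 CPM), as did 15 of 15 body wall muscle markers (4308 to 4639.9 and then 8648 to 8704 CPM) and 15 of 15 intestine markers (15896 to 17054 and then 36413 to 41391 CPM). The yolk protein gene vit-2 made up 84.0% of the intestine sum in EV control and 89.3% on RNAi, and the other 14 intestine markers summed to 2526 to 2693 and then 4116 to 4163 CPM. Of 14 epidermis markers tested, 9 fell and 2 rose, and all 15 listed summed to 512 to 626 and then 552 to 582 CPM. Among the 14, the collagen gene rol-6 made up 64.1% of the sum on RNAi, and the other 13 summed to 349 to 453 and then 202 to 204 CPM. Of 9 sperm markers tested, 5 fell and 3 rose, and all 16 listed summed to 10.6 to 13.4 and then 11.09 to 13.1 CPM. Among the 9, spe-41 made up 29.6% of the sum in EV control and 51.6% on RNAi. The other 8 summed to 6.38 to 8.80 and then 5.12 to 6.11 CPM. With no filter on low counts 9 sperm markers fell, and with a filter at CPM above 5 the count was 0. No marker in these lists was at 0 in every library. asb-1, iff-1 and rpl-11.1 were lower than the median germline marker, and rpl-25.2 (−0.98) stood a little above it. rpl-25.1 (1.04) was close to the medians of muscle and intestine markers (both 1.01). rpl-11.2 (1.13) lay between these and the median of neuron markers (1.17). asb-2 and iff-2 were below all of these medians. The part of cell composition in the shifts of the 4 pairs was not tested.

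The genomic surroundings of the 8 genes were compared as well. Of the 8 nearest protein-coding neighbours of the lower genes, 6 fell and 2 rose, and of the 8 nearest to the higher genes, 6 rose, 1 fell and 1 was not called. Beside this stand 47.2% of all tested genes called higher and 40.8% lower. Among the 6 that rose beside the higher genes, nmur-3, glb-27, AH9.1 and F55D10.4 had few reads. Their mean counts ran from 19.7 to 35 in EV control and from 41 to 55 on RNAi. The log2 fold change of AH9.1 ranged from 0.54 to 1.17 when 1 library was left out. Of the neighbours of the higher genes, 6 of 8 are X-linked, and all of these but glit-1 rose. As 66.7% of tested X-linked genes were called higher, a rise was the common state of an X-linked gene, neighbour or not. The other gene that rose, glb-27, lies beside iff-2 on chromosome II. Of the neighbours of the lower genes, 0 of 8 are X-linked, and 44.5% of tested autosomal genes were called lower. The neighbour closest to any of the 8 is glit-1, which ends 97 bases upstream of rpl-25.1 on the same strand and fell (log2 fold change −0.27, adjusted p = 0.000138 in edgeR's test), though with upper-quartile factors it stood at −0.02. cdk-1, whose start faces that of iff-1 across 278 bases, fell (−1.02, adjusted p = 1.57e-15). cep-1, the p53 homolog gene that lies 202 bases downstream of rpl-25.2 on the other strand, fell too (−1.16, adjusted p = 3.03e-16).

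Only 2 annotated features overlap the 8 genes, both on the iff pair. The small nucleolar RNA gene F54C9.12 (chromosome II, 8560691 to 8560772) lies within an intron of iff-2 on the same strand and covers 0 of its exonic bases. The noncoding RNA gene T05G5.17 (chromosome III, 9745993 to 9746232) lies opposite iff-1 and covers 138 of its 674 exonic bases. Neither has counts in the deposited table. For strand use in counting, the sources used here give no setting. Reads that match both paralogs of a pair could have been split or dropped; how much sequence the paralogs share was not measured here.

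The genes most like each of the 8 across the libraries were found among 5439 named genes by the distance between their log2 CPM values, each centred on its EV control mean, over the 6 libraries. Centred this way, the distance follows mainly the fold change, the value on which the 8 genes were chosen. The genes named are thus ones with a like log2 fold change (fib-1 and rpl-11.1 both −1.55, nspc-10 and rpl-11.2 both 1.13). Shared regulation was not tested. Nearest to asb-1 were cpg-3, a chondroitin proteoglycan gene (distance 0.081), and the phosphatase gene cdc-25.2 (0.090), and nearest to iff-1 were cri-3 (0.11) and again cpg-3 (0.12). rpl-11.1 was closest to fib-1, the fibrillarin methyltransferase of the box C/D complex to which nol-56 belongs (0.13), and to sun-1, a nuclear envelope gene of meiotic cells (0.13). rpl-25.2 was closest to the profilin gene pfn-1 (0.051) and the mitochondrial ribosomal protein gene mrps-9 (0.057). On the other side, asb-2 was closest to unc-112, the kindlin of muscle attachments (0.054), and the aspartyl protease gene asp-1 (0.061), and iff-2 to tmbi-4 and the calsyntenin gene casy-1 (both 0.062). rpl-11.2 was closest to nspc-10 (0.072) and ilcr-1 (0.095), and rpl-25.1 to dhcr-24 (0.055) and tpra-1 (0.063).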

How the data were processed

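The authors deposited whole-number read counts per gene and library, and, per the file headers, a normalized signal (each count over its library's size factor, as the values show). Tools listed in the submitters' processing notes, without role or order, are DESeq2 1.36.0, HTSeq 2.01, TopHat2 2.1.1 and cutadapt 2.10, and the build is WBcel235. Libraries were polyA-selected with a strand-marking kit, per the labels' protocols. The counts were tested, and the normalized values only compared with them.

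Genes were filtered with filterByExpr, scaled with TMM factors and fitted in R 4.3.3 with edgeR 4.0.16 (quasi-likelihood test, group as the only term, two-sided, Benjamini-Hochberg adjustment over all 14677 genes, threshold 0.05). Standard errors were derived from the test statistic. Counts of PCR reads are not counts of independent molecules. No 2 libraries of a group agreed within sampling noise (chi-square over degrees of freedom 2.07 to 6.35). The test was tried on simulated counts.

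Exon lengths and positions came from the Ensembl 115 annotation of WBcel235. Comparison pairs were planned by protein identity, which was not used here; 464 of 874 protein-coding symbol pairs had matching deposited descriptions, and both genes were tested in 388. Of the list names, 4 translation factors had no match. Members, lists and rules were chosen with earlier results of these data known. Genes named are the 8 members, up to 2 called genes each way per list, the 5 widest other pairs whose genes both averaged 3 or more in log2 CPM, and the 2 nearest genes per member; others are named after their values were seen. Alternatives were DESeq2 1.42.0, limma-voom (limma 3.58.1), RLE or upper-quartile factors, library totals, a filter at CPM above 5 in 3 libraries or none, the replicate block and leaving out each library.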

Additional observations from a re-analysis of the deposited data

How the results depend on the processing

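The distances within the 4 pairs moved little under all 14 alternatives, by less than the SD of the log2 ratio in the more variable group of libraries, though not always the less variable one: 2.009 to 2.08 for asb, 2.40 to 2.44 for iff, 2.68 to 2.70 for rpl-11 and 1.996 to 2.05 for rpl-25 (log2). The summed levels of the pairs stayed lower on RNAi under all 14, by −0.83 to −0.45 (asb), −0.86 to −0.48 (iff), −0.64 to −0.26 (rpl-11) and −0.56 to −0.18 (rpl-25). Each of the 8 genes kept its direction under the same alternatives; asb-2 ranged from 0.18 with DESeq2 to 0.57 with upper-quartile factors. RLE factors shifted the median of all genes by −0.14 and upper-quartile factors by 0.25, and single levels moved with it. With CPM above 5 in at least 3 libraries, fewer genes were tested and 4508 were higher (6927 in the report), with 2 ATP synthase and 2 ribosomal protein genes among them. With upper-quartile factors 2 ATP synthase and 6 ribosomal protein genes rose and 1 hypusination enzyme fell, with library totals 2 ATP synthase genes rose, and with RLE factors or DESeq2 2 translation factors rose. Over the 14 alternatives 2 to 6 translation factors rose and 26 to 29 fell. The number fallen ran from 56 to 76 for ribosomal protein genes and from 12 to 14 for ATP synthase genes. ife-2 stood at −0.0159 with RLE factors and −0.0163 with DESeq2, and with upper-quartile factors pab-1 stood at 0.10 and rla-1 at 0.0549; beyond the shift of the median, the cause was not tested. Of the other pairs, 26 were called in opposite directions with a fold of at least 1.5 as well and 10 (17.5%) among 57 with dotted symbols, the latter an alternative added after seeing the data. Replicate numbers are shared by the groups, but same-numbered libraries did not deviate together (correlations −0.035, −0.011 and 0.00039); with the replicate block 6893 genes were higher and 5964 lower. Leaving out 1 library each gave 6742 to 6937 higher and 5933 to 6056 lower genes. The ranges of gain against loss, the counts of alternatives for pairs within the machines, the sums of pairs without length and the marker sums without their largest gene were also added after seeing the data. The planned cut at 60% protein identity was not run.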

Other observations

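Among the pairs outside the 4 that edgeR called in opposite directions, with both genes averaging 3 or more in log2 CPM, the 5 widest were of other kinds. The innexin genes inx-1 and inx-2, which encode gap junction subunits, were widest: inx-1 rose from 9.29 ± 0.977 to 18.9 ± 1.08 CPM and inx-2 fell from 62.7 ± 2.46 to 9.28 ± 0.053 CPM (log2 fold changes 1.01 and −2.76), although both are X-linked. The glycolytic genes gpd-1 and gpd-2, for glyceraldehyde-3-phosphate dehydrogenase, had the layout of most of the 4 pairs, with autosomal gpd-1 falling from 263 ± 11.097 to 73.2 ± 2.40 CPM (−1.84) and X-linked gpd-2 rising from 108 ± 5.79 to 188 ± 7.06 CPM (0.79); both have close copies elsewhere in the genome, so their counts are uncertain. The nuclear receptor genes nhr-1 (X-linked, 0.68) and nhr-2 (−1.93) followed.

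The receptor genes ilcr-1 (1.14) and ilcr-2 (−1.42), on chromosomes IV and II, and the isocitrate dehydrogenase subunit genes idhg-1 (−1.25) and idhg-2 (1.20), on chromosomes III and I, were apart without an X-linked gene. In the mitochondrial pair the higher gene stayed the lesser by CPM: idhg-1 went from 229.7 ± 2.84 to 96.4 ± 3.28 CPM and idhg-2 from 7.89 ± 0.748 to 18.3 ± 0.963 CPM.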
